A study of Caenorhabditis elegans with 12 samples.

Results

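The genes described here encode pre-mRNA splicing factors of Caenorhabditis elegans. They are the genes whose WormBase symbol starts with rsp, snr, rnp, prp, sfa, sftb, uaf or hrp followed by a number, and 43 of the 19997 genes in the deposited tables met that rule: 13 prp, 9 rnp, 8 rsp, 7 snr, 3 sftb and 2 uaf genes, and sfa-1. No gene carried a numbered hrp symbol. The hnRNP genes once listed that way, hrpa-1 and hrpr-1 in current naming, are given among the other regulators of splicing further on. The rule used names and no measured value, and it takes in genes that share a prefix without being known as parts of the spliceosome, such as rnp-8.

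Splicing removes introns from a pre-mRNA in the spliceosome, which assembles anew on each intron. The U1 particle binds the start of the intron, SF1 and the U2AF heterodimer mark the branch point and the end of the intron, the U2 particle with its SF3A and SF3B proteins replaces SF1, and the U4/U6.U5 tri-snRNP then joins and is rearranged into the catalytic form. A ring of Sm proteins holds the small nuclear RNAs of these particles except U6. SR proteins bind exons and help choose splice sites, and in C. elegans many messages also receive a spliced leader in trans. In C. elegans, SFA-1 has been linked to the long life of animals under dietary restriction.

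Messenger RNA was measured in 12 samples of whole hermaphrodites in 5 groups. The daf-2 group carried daf-2(e1370), a reduced-function allele of the insulin/IGF-like receptor, together with eri-1(mg366), and its labels add control(RNAi), which means feeding with bacteria that hold an empty RNAi plasmid. The WT group carried eri-1(mg366) alone, an allele that makes animals more sensitive to RNAi, so both groups of this comparison share it. Each had 3 samples from day 1 of adulthood. The germline-deficient glp-4(bn2) animals, which lack the eri-1 allele, were sampled with 2 samples each on day 1, day 3 and day 7. All animals received 50 µM FUDR, which blocks the production of progeny, and spent adulthood at 20 °C, and each sample pooled at least 80 worms. By the labels the larvae of every group grew at 15 °C, whereas the study's methods describe a higher, restrictive larval temperature for glp-4, at which the mutation stops the germ line from forming.

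Sequencing depth ranged from 4538353 estimated counts in a day 7 sample to 22484551 in a WT sample. The 6 daf-2 and WT samples had at least 13750913, the 2 day 7 samples at most 5216982, so values of day 7 carry the largest counting error. Markers of germline, muscle, intestine, neurons and pharynx were all detected in whole WT animals. Of the hypodermis markers, col-19 was at 2111 to 2189 TPM (the deposited level, scaled to gene length and to the library) in WT. The others were barely measured there, bli-1 at 0.0667 to 0.242, rol-6 at 0.0495 to 0.138 and dpy-7 at 0.373 to 0.883 TPM. In glp-4 animals on day 1 the 10 germline markers summed to 16.6 to 19.7 TPM against 1347 to 1447 in WT, and none of the 10 was at 0 in every sample. No source names separate cultures for the samples of a group, so p-values measure the spread between these samples, which may be technical. The libraries were not strand-specific, and 10 of the 43 genes overlap a protein-coding gene on the opposite strand, the longest overlaps being 768 bases of rsp-7 with marc-2, 552 of prp-40 with mrps-23 and 310 of rnp-8 with icpp-55. These overlaps were taken over whole genes, introns included. Only where exons of both genes overlap can their reads not be told apart, and overlap of exons was not measured.

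The splicing factor genes were well expressed on day 1 in animals with a germ line and much less so in glp-4 animals of any age. Their summed level was 6208 to 6503 TPM in WT, 6756 to 7048 in daf-2, 1180 to 1230 in glp-4 on day 1, 928.3 to 947 on day 3 and 1366 to 1394 on day 7. The Sm genes contributed 2164 to 2261 TPM in WT, the SR genes 1773 to 1889.5, the rnp genes 869 to 911 and the 13 prp genes 832 to 880.2. In WT the highest mean levels were those of snr-2 (SmB) at 467 TPM, rsp-3 (the SR protein related to human SF2/ASF) at 443 and snr-6 (SmE) at 417, and the median gene stood at 96.1. At the low end stood prp-4, a protein of the U4/U6 particle, at 27.3 TPM, and rnp-9 at 2.63. The order was similar in daf-2, where rsp-3 was first at 464 TPM and rnp-9 last at 2.97. In WT rsp-3, at 427 to 457 TPM, overlapped both snr-2, at 453 to 477, and snr-6, at 399 to 449, whereas snr-2 and snr-6 did not overlap. In glp-4 on day 1 snr-6 led at 108 TPM, and 7 of the 43 genes had a mean below 10 TPM, against 1 in WT.

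**Figure D1:**
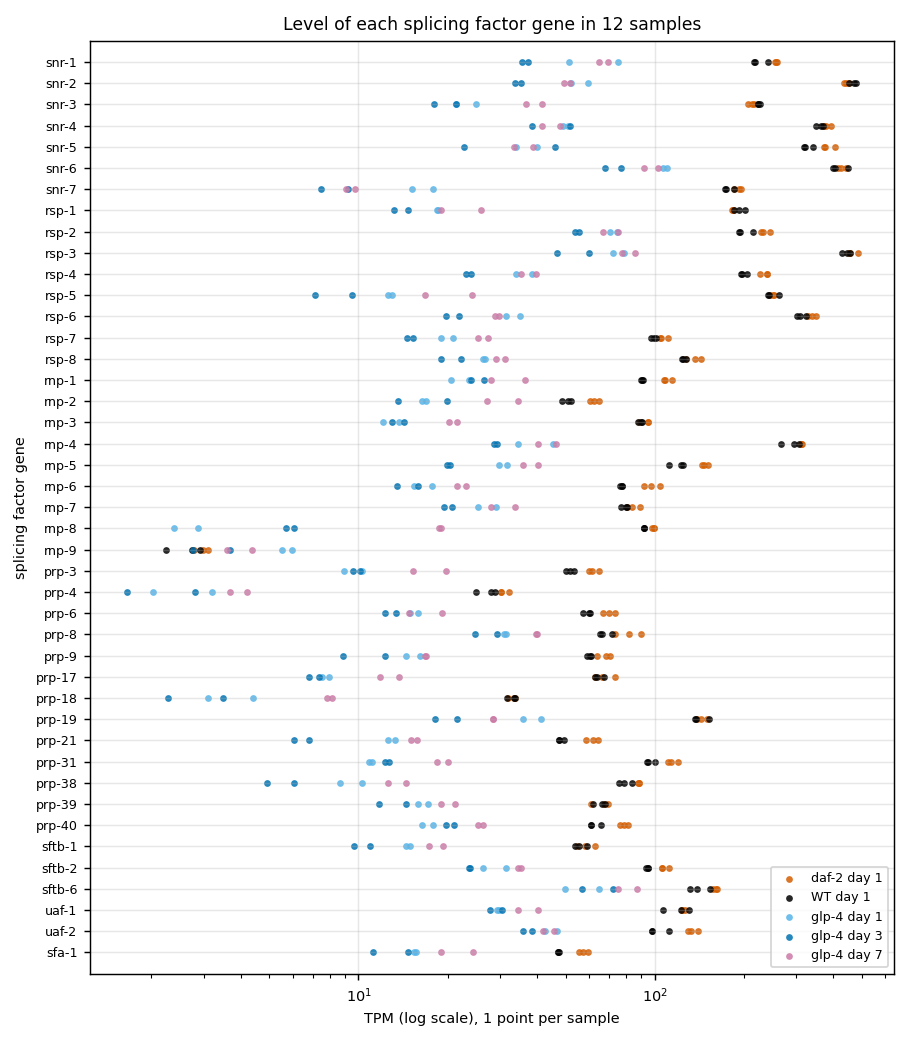
Level of each of the 43 splicing factor genes in TPM on a log axis, 1 point per sample, coloured by group (3 daf-2, 3 WT and 2 samples of glp-4 on each of day 1, day 3 and day 7). For every gene but rnp-9 the daf-2 and WT points lie to the right of the glp-4 day 1 points.

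The comparison of daf-2 with WT addressed reduced insulin/IGF-like signaling (IIS) on day 1 of adulthood. The labels give control(RNAi) for the daf-2 samples alone and do not say whether WT had the same bacteria, so if the bacteria differed, a difference of food and the daf-2 allele cannot be told apart. Differences were small. Among 13528 genes tested in edgeR by quasi-likelihood, with p-values adjusted over all of them by the Benjamini-Hochberg procedure, 12 of the 43 genes were higher in daf-2 and 5 lower, at an adjusted p below 0.05. Over all genes tested 25.5% were called higher and 22.5% lower, so the 27.9% of splicing factor genes called higher was close to the background, and the 11.6% called lower was under it. The 26 other genes did not pass the test. None of the 43 differed by as much as 2-fold, while 10.6% of all genes were called higher and 4.15% lower by that much, and the log2 fold changes ran from -0.21 to 0.27 with a median of 0.02, against 0.00 over all genes. The values of the groups did not overlap for 19 of the 43 genes, and for 57.5% of all genes.

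The largest rise was in a gene that recognises the end of the intron. Values per sample are normalised CPM, that is counts scaled to the library size with TMM factors, to be compared only within a gene. uaf-2, the small U2AF subunit, which reads the AG at the end of the intron, measured 111, 104 and 110.1 in the daf-2 samples and 84.3, 98.7 and 86.3 in WT, a rise on the log2 scale of 0.27 (SE 0.06, adjusted p = 0.00356). All daf-2 samples were above all WT samples. rnp-6, the relative of human PUF60, which assists U2AF, measured 124, 121 and 129.7 in daf-2 and 101, 105 and 106 in WT, a difference of 0.26 (SE 0.04, adjusted p = 6.10e-04). prp-21, the SF3A1 subunit of the U2 particle, measured 116, 105 and 112 in daf-2 and 94.8, 95.2 and 93.9 in WT, a difference of 0.23 (SE 0.05, adjusted p = 0.00172). Neither gene's groups overlapped. sfa-1, the SF1 protein that binds the branch point, rose by less, with 143, 141 and 143 in daf-2, 126, 130.1 and 129 in WT and a difference of 0.15 (SE 0.04, adjusted p = 0.00681).

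Among the genes of U1 proteins, prp-40 rose by 0.23 (log2) and rnp-2 by 0.18. In yeast the counterpart of PRP-40 bridges the ends of the intron. The U1-70K gene rnp-7 gave -0.03 and prp-39 -0.12, and neither passed. Of the tri-snRNP genes, prp-8, the protein that cradles the catalytic centre, prp-3, prp-31 and prp-6 were called higher, with log2 fold changes of 0.14, 0.14, 0.13 and 0.12. The 2 remaining calls in this direction were rnp-5, the RNPS1 protein that accompanies the exon junction complex, at 0.17, and rnp-1 at 0.16, a gene that shares 113 bases with dpy-30 on the same strand. The 3 SF3B genes sftb-1, sftb-2 and sftb-6 did not pass, at -0.06, 0.06 and 0.05.

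The calls in the other direction were in Sm and SR genes and in uaf-1. snr-3 (SmD1) measured 94.3, 86.3 and 86.1 normalised CPM in daf-2 and 99.9, 104 and 104 in WT, a difference of -0.21 (SE 0.05, adjusted p = 0.00506). snr-2 (SmB) measured 229, 223 and 222 and 246, 269 and 263, a difference of -0.21 (SE 0.04, adjusted p = 0.00243). The SR gene rsp-1 measured 185, 177 and 174 and 198, 218 and 195, a difference of -0.19 (SE 0.05, adjusted p = 0.0086). In each of the 3 genes every daf-2 sample was below every WT sample. The SR gene rsp-5, whose neighbour on chromosome II is snr-3, gave -0.14 at an adjusted p of 0.0499, and its groups overlapped. The other 5 Sm genes lay between -0.09 and 0.11 and the other 6 SR genes between -0.06 and 0.12, none of them called.

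uaf-1, the large U2AF subunit that binds the polypyrimidine tract, depended on the scale. Its normalised CPM was 152, 145 and 154 in daf-2 and 163, 176 and 169 in WT, a change of -0.17 (SE 0.04, adjusted p = 0.00899), whereas its TPM was 126, 123 and 123 in daf-2 and 107, 122 and 129.9 in WT and the log2 fold change from limma on TPM was 0.0593. The U2AF subunits thus had opposite signs on counts and the same sign on TPM.

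The split between higher and lower calls depended on scaling as a whole. With library totals alone 19 of the 43 genes were called higher and 0 lower, against 4751 and 1869 of 13528 genes tested. With limma on log2(TPM + 1) it was 21 and 0, against 4152 and 1593 of 12768. The median of all genes moved to 0.13 and 0.12 in these fits. Under upper-quartile scaling the counts were 13 and 4, against 3655 and 2822 of 13528 genes. Under DESeq2 they were 7 and 4, against 2981 and 2764 of 13528. The count of genes called higher was 7 without daf-2 replicate 2, against 3055 of 13789 genes tested. It was 6 without either WT replicate 1 or WT replicate 3, against 2996 of 13859 and 2927 of 13827. Germline and gamete markers moved alongside: 7 of 10 germline markers and 6 of 7 oocyte markers were lower in daf-2 and 2 germline markers higher, with germline sums of 1216 to 1229.6 TPM in daf-2 and 1347 to 1447 in WT, and all 7 sperm markers were higher, with sums of 277 to 314 and 134 to 166 TPM. Their part in these differences was not tested. In bulk samples fewer cells of a type and less RNA per cell cannot be told apart.

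**Figure D2:**
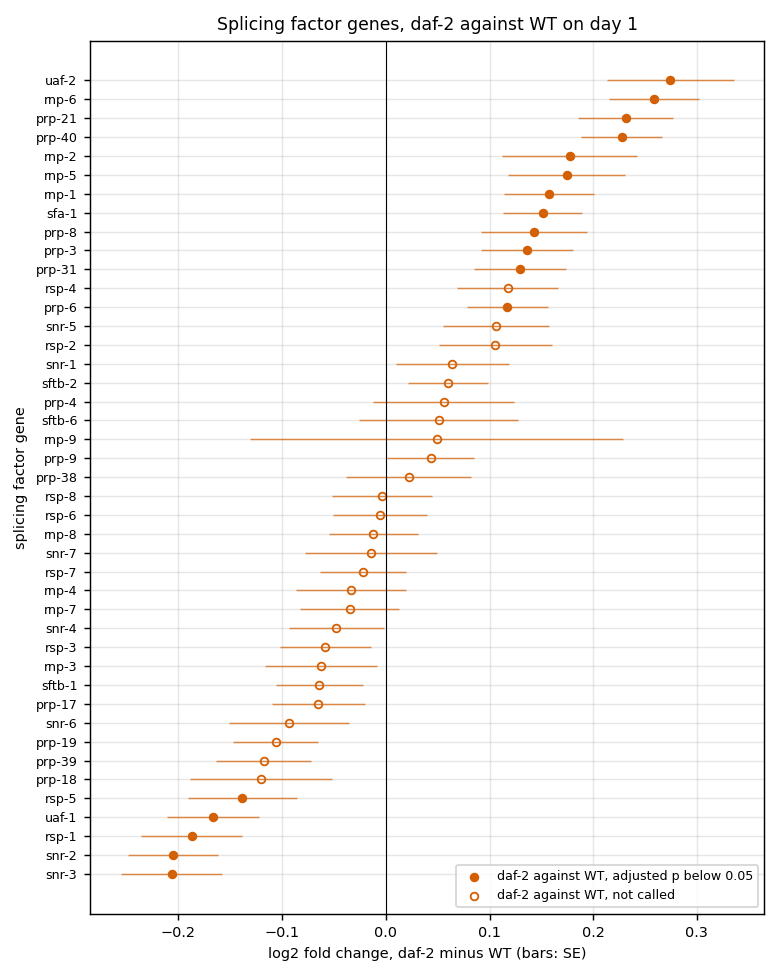
Log2 fold change of each of the 43 genes, daf-2 minus WT on day 1 (3 samples each), with the standard error as bars. Filled points have an adjusted p below 0.05: 12 lie to the right of 0 and 5 to the left, all within 0.28 of 0.

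The comparisons within glp-4 animals followed the splicing factor genes from day 1 to day 7 of adulthood. From day 1 to day 3 most of them fell. In the edgeR fit over 13222 genes, 26 of the 43 genes (60.5%) were lower on day 3 and 1 was higher, against 27.5% of all genes called lower and 26.6% called higher, and the median log2 fold change of the 43 was -0.46 against 0.00 over all genes. All 8 SR genes fell, as did 4 of 7 Sm genes, 7 of 13 prp genes, 4 of 9 rnp genes, 2 of 3 sftb genes and uaf-2, and 3 genes fell by at least 2-fold, against 15.2% of all genes. The groups did not overlap for 34 of the 43 genes, and for 76.3% of all genes with 2 samples on each side.

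By day 7 fewer genes differed from day 1. There were 10 lower (23.3%) and 2 higher, against 31.3% and 30.6% of all genes, so the share called lower was under the background, and the median of the 43 was -0.14 against 0.02 over all genes. The groups did not overlap for 33 of the 43 genes, and for 81.7% of all genes. Between day 3 and day 7, 12 genes (27.9%) rose and 0 fell, against 14.2% and 18.4% of all genes, with a median of 0.26 against 0.01 and groups that did not overlap for 32 of the 43 genes and for 67.8% of all genes. In that last comparison DESeq2 called 5 of the 43 genes higher and 0 lower, against 1223 and 2015 of 13222 genes. The comparisons of day 3 and day 7 with day 1 share the day 1 samples, and those of day 3 with day 1 and day 7 with day 3 share the day 3 samples.

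**Figure D3:**
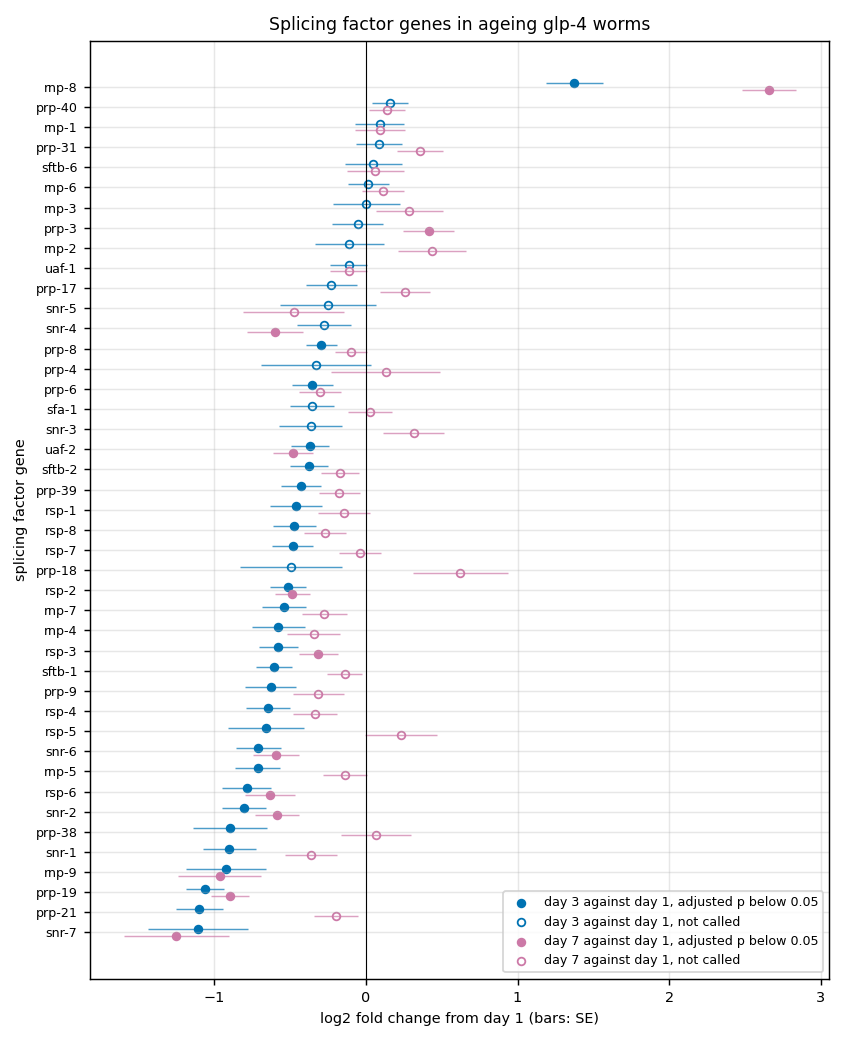
Log2 fold change from day 1 of each of the 43 genes in glp-4 animals on day 3 (blue) and day 7 (pink), 2 samples per age, with the standard error as bars and filled points for an adjusted p below 0.05. On day 3 26 filled points lie left of 0, on day 7 10, and rnp-8 stands alone at the right on both days. The day 1 samples are shared.

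Among the Sm genes, snr-7 (SmG) fell furthest. Its normalised CPM was 6.10 and 5.11 on day 1, 2.30 and 2.88 on day 3 and 2.42 and 2.27 on day 7, a log2 change of -1.11 (SE 0.33, adjusted p = 0.0111) to day 3 and of -1.25 (SE 0.35, adjusted p = 0.00623) to day 7. These levels rest on 57 and 56 estimated counts on day 1, 18 and 21 on day 3 and 14 and 15 on day 7. snr-2 (SmB) and snr-6 (SmE) were also lower at both later ages, with log2 changes of -0.80 and -0.71 on day 3 and of -0.58 and -0.59 on day 7. snr-1 (SmD3) was 53.9 and 36.5 on day 1, 23.2 and 25.1 on day 3 and 36.3 and 33.9 on day 7, with a change of -0.90 to day 3 and a rise of 0.54 from day 3 to day 7. The day 1 samples of snr-1 differed from each other by more than the day 3 samples did. snr-4 (SmD2) was 21.7 and 21.97 on day 1, 15.2 and 21.002 on day 3 and 13.3 and 15.4 on day 7 and was called only in the comparison of day 7 with day 1, at -0.60. snr-3 (SmD1) was 12.8 and 10.8 on day 1, 8.30 and 10.02 on day 3 and 15.5 and 13.8 on day 7, and only its change from day 3 to day 7 passed, at 0.68. snr-5 (SmF) passed in no comparison of ages.

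All 8 SR genes were called lower on day 3 than on day 1, and 2 of them were called higher on day 7 than on day 3. rsp-6, related to human SRp20, had the largest SR fall, with 25.4 and 22.2 on day 1, 12.9 and 14.7 on day 3 and 15.03 and 15.6 on day 7 normalised CPM and changes of -0.79 (SE 0.16, adjusted p = 9.81e-04) to day 3 and -0.63 (SE 0.17, adjusted p = 0.0043) to day 7. rsp-2 and rsp-3 were also lower on day 7 than on day 1, with log2 changes of -0.48 and -0.31, and of -0.51 and -0.58 on day 3. For the other 5 the call was lost on day 7, which alone does not show a return to the day 1 level. rsp-4, related to human SC35, was 27.4 and 30.4 on day 1, 19.02 and 17.98 on day 3 and 24.2 and 21.8 on day 7. Its log2 change to day 7 was -0.33, next to that of rsp-3, which was called. rsp-8, the relative of human TRA2, was 31.2 and 31.4 on day 1, 23.9 and 21.3 on day 3 and 26.8 and 25.1 on day 7. rsp-1 was 22.6 and 22.4 on day 1, 17.2 and 15.5 on day 3 and 23.5 and 17.4 on day 7, with day 7 samples that span the day 1 values. rsp-5 was 9.85 and 9.12 on day 1, 6.89 and 5.08 on day 3 and 12.95 and 9.39 on day 7 and rose by 0.89 between day 3 and day 7. rsp-7 was 32.2 and 35.6 on day 1, 23.2 and 25.4 on day 3 and 34.2 and 31.96 on day 7 and rose by 0.44 over the same days. Those 2 were the SR genes called in that last comparison.

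The genes that recognise the branch point and the end of the intron did not all receive the same call. sfa-1 was 48.2 and 48.7 on day 1, 42.1 and 33.5 on day 3 and 55.4 and 43.5 on day 7 and passed in none of the 3 comparisons, with -0.36 (SE 0.15, adjusted p = 0.0568) on day 3. uaf-1 was 53.9 and 52.8 on day 1, 50.5 and 48.04 on day 3 and 53.2 and 45.6 on day 7 and did not pass either, with log2 fold changes of -0.11 and -0.11 from day 1. Its partner uaf-2 was 47.5 and 42.8 on day 1, 35.6 and 34.3 on day 3 and 33.7 and 31.05 on day 7 and changed by -0.37 (SE 0.13, adjusted p = 0.0248) and -0.48 (SE 0.13, adjusted p = 0.00532). On day 3 the estimates of sfa-1 and uaf-2 were close, though only uaf-2 was called. Whether sfa-1, uaf-1 and uaf-2 differ from each other was not tested. rnp-6 was nearly level, at 25.6 and 27.2 on day 1, 25.8 and 27.6 on day 3 and 27.98 and 29.1 on day 7.

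In the U2 particle, prp-21 (SF3A1) fell and returned. Its normalised CPM was 29.96 and 28.3 on day 1, 12.5 and 14.7 on day 3 and 25.9 and 24.8 on day 7, so both day 3 samples were below all others, with a change of -1.10 (SE 0.15, adjusted p = 2.94e-05) to day 3 and of 0.90 (SE 0.16, adjusted p = 6.21e-04) from day 3 to day 7. prp-9 (SF3A3) was 27.6 and 24.6 on day 1, 19.3 and 14.4 on day 3 and 20.9 and 21.1 on day 7, and its change of -0.63 to day 3 passed while -0.31 on day 7 did not. sftb-1, the SF3B1 subunit that clamps the branch helix, was 72.2 and 70.1 on day 1, 48.5 and 44.9 on day 3 and 68.1 and 61.2 on day 7, with -0.61 to day 3 and 0.47 from day 3 to day 7, both called. sftb-2 (SF3B2) was 64.96 and 53.97 on day 1, 44.5 and 46.9 on day 3 and 51.99 and 53.5 on day 7 and passed on day 3 alone, at -0.38. The small SF3B subunit sftb-6 and rnp-3, a U2B-type protein, passed in no comparison of ages. Thus the SF3A and SF3B subunits did not all receive the same call.

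In the U1 particle, the U1-70K gene rnp-7 was 31.6 and 36.1 on day 1, 23.5 and 23.1 on day 3 and 30.6 and 25.6 on day 7, and its change of -0.54 to day 3 passed. It lies 4 bases downstream of syf-2 on the same strand. prp-39 was 41.8 and 44.9 on day 1, 34.8 and 29.7 on day 3 and 40.4 and 36.5 on day 7 and passed on day 3 alone, at -0.43. prp-40 and rnp-2 passed in no comparison of ages, with log2 fold changes of 0.16 and -0.11 on day 3.

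Among the tri-snRNP genes, prp-8, the most counted of the 43 genes, was 270.0 and 264 on day 1, 232 and 203 on day 3 and 249 and 249.6 on day 7. Its change of -0.29 (SE 0.10, adjusted p = 0.0264) on day 3 was the smallest that passed. prp-6 was 50.4 and 53.5 on day 1, 41.6 and 39.8 on day 3 and 36.4 and 47.6 on day 7 and passed on day 3 alone, at -0.35. prp-38, which acts when the assembled spliceosome is activated, was 10.9 and 9.12 on day 1, 4.72 and 6.04 on day 3 and 9.67 and 11.2 on day 7, a change of -0.89 (SE 0.24, adjusted p = 0.00635) followed by a rise of 0.96 (SE 0.25, adjusted p = 0.0095). Its day 3 values lay below all others. prp-3 was 21.7 and 18.8 on day 1, 18.5 and 20.5 on day 3 and 30.4 and 23.6 on day 7, the only gene beside rnp-8 called higher on day 7 than on day 1, at 0.41 (SE 0.17, adjusted p = 0.0436), and it rose by 0.47 from day 3 to day 7. The prp-3 call on day 7 was lost without any of day 1 replicate 2, day 3 replicate 1, day 3 replicate 2 or day 7 replicate 1, and its log2 fold change was 0.21 without the last. prp-4 and prp-31 passed in no comparison of ages.

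Of the genes that act later in splicing, prp-19, the ubiquitin ligase at the centre of the complex named after it, was 73.1 and 83.5 on day 1, 40.08 and 35.1 on day 3 and 41.97 and 42.3 on day 7. It changed by -1.06 (SE 0.13, adjusted p = 5.81e-06) to day 3 and by -0.90 (SE 0.13, adjusted p = 2.47e-05) to day 7, and the day 1 samples were above all later ones. prp-18, a factor of the second catalytic step, was 3.64 and 5.11 on day 1, 2.43 and 3.84 on day 3 and 6.91 and 6.66 on day 7 and rose from day 3 to day 7 by 1.12 (SE 0.34, adjusted p = 0.0214). Its counts were low and its day 1 and day 3 samples overlapped. prp-17, also a factor of that step, was 16.2 and 16.96 on day 1, 14.4 and 13.9 on day 3 and 21.2 and 18.5 on day 7 and rose by 0.49 between day 3 and day 7. The transcripts of rnp-4 and rnp-5, whose proteins stay with the spliced message, fell on day 3. rnp-4, the gene of the Y14 subunit of the exon junction complex, was 22.5 and 18.1 on day 1, 12.9 and 14.3 on day 3 and 15.7 and 16.2 on day 7. Its change to day 3 was -0.58. rnp-5 was 30.9 and 28.6 on day 1, 17.6 and 18.7 on day 3 and 25.4 and 28.6 on day 7, with -0.71 to day 3 and 0.58 from day 3 to day 7.

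rnp-8 went the other way. In C. elegans RNP-8 is known as a partner of the cytoplasmic poly(A) polymerase GLD-2 in the germ line, not as a part of the spliceosome. Its normalised CPM was 5.03 and 5.01 on day 1, 12.8 and 13.3 on day 3 and 31.96 and 31.5 on day 7, a rise of 1.37 (SE 0.19, adjusted p = 2.48e-05) to day 3, of 2.66 (SE 0.18, adjusted p = 1.13e-08) to day 7 and of 1.28 (SE 0.16, adjusted p = 3.67e-05) between them. Values were separate at all 3 ages. Germline markers rose with it: all 10 were called higher on day 3 and on day 7 than on day 1, and their sum was 16.6 to 19.7 TPM on day 1, 66.5 to 75.2 on day 3 and 196 to 197 on day 7. The P granule gene pgl-1, for example, stood at 1.60 and 1.76 TPM on day 1 and 21.4 and 21.3 on day 7. The part of germline RNA in the change of rnp-8 or of any other gene was not tested. rnp-9 fell beside snr-7 and prp-19, with 8.35 and 8.93 on day 1, 5.11 and 3.98 on day 3 and 3.97 and 4.85 on day 7 normalised CPM and changes of -0.92 (SE 0.26, adjusted p = 0.00887) and -0.96 (SE 0.27, adjusted p = 0.00717). rnp-1 passed in no comparison of ages.

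**Figure D4:**
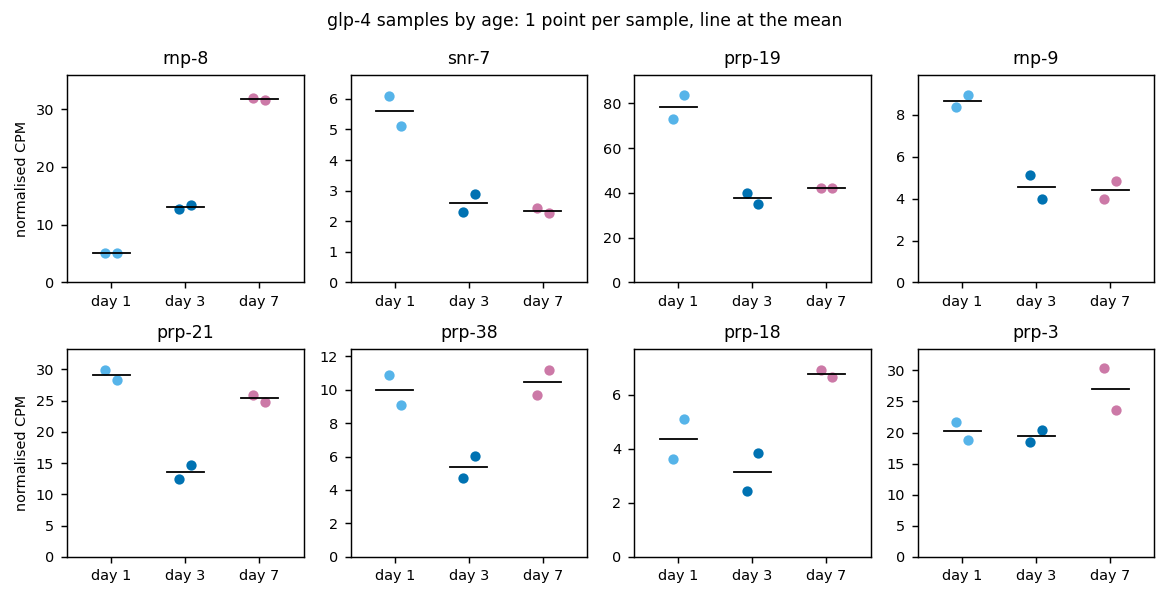
Normalised CPM of 8 splicing factor genes in glp-4 animals on day 1, day 3 and day 7, 1 point per sample and a line at the mean of 2, each axis starting at 0. rnp-8 rises at each age, snr-7, prp-19 and rnp-9 are lower on both later days, and prp-21 and prp-38 are lowest on day 3.

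The count of genes lower on day 3 was 14 to 28 under the other scalings, tests, filters and sample sets, and rnp-8 alone was called higher each time. The count lower was 16 when day 3 replicate 2 was left out, against 3035 of 14018 genes tested. In limma on log2(TPM + 1) it was 16, against 2858 of 13353. The day 7 counts depended on scaling. With library totals alone 22 genes were called higher and 1 lower than on day 1, against 6550 and 2593 of 13222 genes tested. With limma on log2(TPM + 1) it was 15 and 2, against 5833 and 2674 of 13353. With upper-quartile scaling it was 8 and 6, against 4933 and 3468 of 13222. The median of all genes moved to 0.56, 0.41 and 0.22. Under those scalings the 43 genes had medians of 0.40, 0.28 and 0.06, each below the median of all genes. From day 3 to day 7 the same scalings called 37, 32 and 17 genes higher and 0 lower. Of all genes tested they called 5726, 3891 and 2525 higher and 1055, 1264 and 1992 lower. The medians of all genes were 0.51, 0.30 and 0.12. Leaving out day 3 replicate 1 or day 7 replicate 1 left 4 genes called higher between day 3 and day 7. Over all genes these fits called 966 of 13860 and 1114 of 13853 higher. Leaving out day 3 replicate 2 or day 7 replicate 2 left 6, against 983 of 14018 and 1057 of 13717. Other tissues moved strongly in the same samples. All 4 muscle markers fell on day 3 and again on day 7, with sums of 2525 to 3028 TPM on day 1, 499.8 to 575 on day 3 and 249 to 274 on day 7, and all 7 oocyte markers rose on day 3. Most of the oocyte sum was perm-2, which makes part of the eggshell, at 515 and 753 TPM on day 1 and 5895 and 6102 on day 3, and the yolk receptor gene rme-2 went from 0.135 and 0.0864 to 1.44 and 1.22. In the hypodermis list of 4 cuticle collagens, bli-1, rol-6 and dpy-7 were at 59.7 to 112, 70.4 to 134 and 21.7 to 22.5 TPM in glp-4 on day 1. The remaining collagen, col-19, was at 3228 and 4248 TPM on day 1, 340 and 341 on day 3 and 89.9 and 88.3 on day 7. On day 3 bli-1 and rol-6 were at 0.498 to 0.898 and 0.137 to 0.527 TPM, and dpy-7 was at 0 in both samples. The part of these shifts in the change of the splicing factor genes was not tested.

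Set against WT animals of the same day, glp-4 animals on day 1 had less of nearly every splicing factor message. This comparison joins several differences, since the strains differ in glp-4, in eri-1, in the germ line and, per the methods, in larval temperature, and these cannot be told apart. Whether animals of both strains were at the same stage on day 1 was not tested. The collagens bli-1, rol-6 and dpy-7 were at 59.7 to 112, 70.4 to 134 and 21.7 to 22.5 TPM in glp-4 and barely measured in WT. Of the 43 genes 42 were lower (97.7%) and 1 was higher, against 40.0% of 15610 genes called lower and 45.5% called higher, and 39 fell by at least 2-fold, against 32.3% of all genes. The median log2 fold change was -1.78, while that of all genes was 0.28. Every other scaling, test, filter and left-out sample gave the same counts of 42 and 1, and the median of the 43 ran from -2.21 to -1.42. The groups overlapped for no gene of the 43, and did not overlap for 89.7% of all genes.

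rnp-8 had the largest fall, with 5.47 and 5.42 normalised CPM in glp-4 on day 1 and 167, 174 and 172 in WT, a difference of -4.97 (SE 0.11, adjusted p = 1.55e-16). The SR gene rsp-5 followed, at 10.7 and 9.85 and 135, 150.1 and 139.6, a difference of -3.78 (SE 0.13, adjusted p = 2.86e-14). snr-7 came next, at 6.64 and 5.52 and 48.98, 53.9 and 50.7, a difference of -3.08 (SE 0.13, adjusted p = 3.30e-13). In each of them the glp-4 samples were far under every WT sample. The 7 Sm genes had the lowest family median, -2.70, followed by the SR genes at -2.09, the rnp genes at -1.64 and the prp genes at -1.58. Within the Sm ring the values were spread from -3.08 for snr-7 to -1.46 for snr-1. The 3 sftb genes, both uaf genes and sfa-1 lay between -1.52 in sftb-1 and -0.78 in uaf-2, and the smallest fall of all was that of prp-8, at 294 and 285 and 489, 466 and 461, a difference of -0.70 (SE 0.08, adjusted p = 2.87e-07). rnp-9 was higher in glp-4, at 9.08 and 9.65 against 3.55, 3.43 and 2.82, a difference of 1.53 (SE 0.20, adjusted p = 1.39e-06). Tissue markers differed widely between these groups. All 10 germline, all 7 oocyte and all 7 sperm markers were lower in glp-4, with median log2 fold changes of -6.42, -9.83 and -5.52. All 4 hypodermis, all 4 muscle and all 3 intestine markers were higher, with medians of 7.44, 2.90 and 2.33. The hypodermis median rests on bli-1, rol-6 and dpy-7, which were barely measured in WT. The part of the tissues in the fall of the splicing factor genes was not tested.

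Other genes of the pathway were read from 4 lists. The 26 further core spliceosome genes measured, among them Sm-like lsm genes, U5 proteins and RNA helicases, were all lower in glp-4 on day 1 than in WT, with a median of -1.78. The 4 genes of spliced-leader trans-splicing were all lower too, from -3.09 in sna-2 to -1.06 in sut-1, as were 5 of 6 exon junction and export genes. Of the 18 regulators of alternative splicing 9 were higher and 9 lower, 50.0% each way, close to the 45.5% and 40.0% of all genes. Those higher included unc-75, a neuronal CELF protein (3.62), mbl-1, the muscleblind gene (2.89), asd-2 (2.56) and sup-12 (2.19), both known in muscle, and ptb-1 (2.39). The hnRNP genes hrpa-1 (-2.10) and hrpr-1 (-1.85) were lower, as was smu-1 (-2.84). etr-1, at 0.27, had about the value of the median of all genes.

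**Figure D5:**
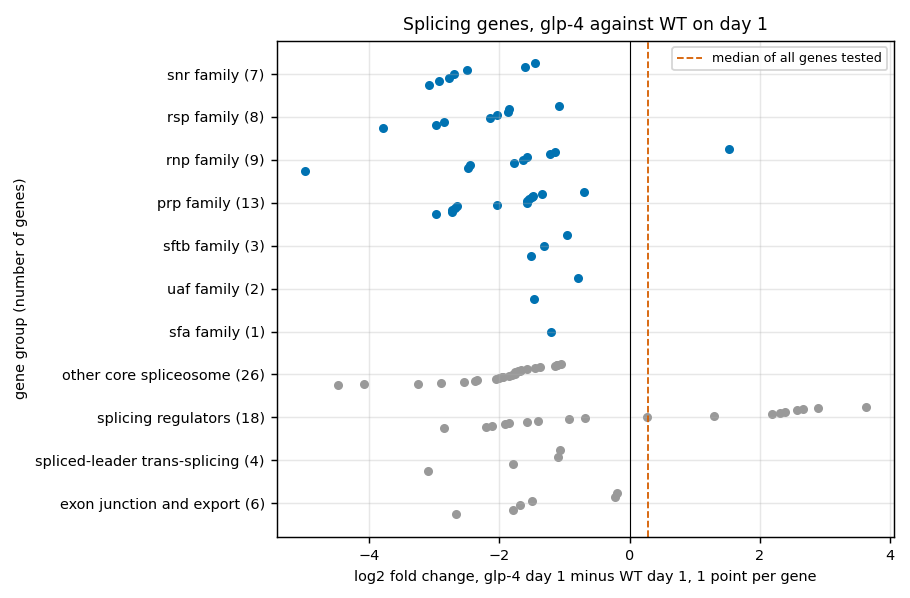
Log2 fold change of glp-4 day 1 minus WT day 1, 1 point per gene, by prefix of the 43 splicing factor genes (blue) and for 4 other lists of splicing genes (grey), with the median of all genes tested (0.28) as a dashed line. All blue points but rnp-9 are left of 0, and the regulators of splicing fall on both sides.

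With age these lists differed in their counts, and no test compared them with each other or with the 43 genes. From day 1 to day 3, against 27.5% of all genes called lower and 26.6% called higher, 15 of 18 regulators fell (83.3%) and 1 rose, 9 of 26 core genes fell (34.6%, near the share of all genes) and 2 rose, 4 of 6 export genes fell and 1 rose, and 0 of the 4 trans-splicing genes passed. The medians were -0.53, -0.33, -0.77 and -0.04. The largest falls were those of hel-1, the UAP56 export helicase (-1.17), fox-1 (-1.09) and hrpk-1 (-1.09). mag-1, the partner of RNP-4 in the exon junction complex, changed by -0.92. Rising genes were snrp-27 (0.76), nxf-1, the export receptor (0.55), spk-1, the kinase of SR proteins (0.45), and mog-1 (0.32). On day 7 against day 1, where 31.3% of all genes were called lower and 30.6% higher, 11 of 18 regulators were lower (61.1%) and 1 higher, 3 of 26 core genes lower (11.5%) and 6 higher (23.1%), 3 of 6 export genes lower and 1 higher, and 0 of 4 trans-splicing genes lower and 1 higher. Between daf-2 and WT, where 25.5% of all genes were called higher and 22.5% lower, 2 of 26 core genes were higher (7.69%) and 2 lower, 2 of 18 regulators higher (11.1%) and 2 lower, 2 of 6 export genes higher and 0 lower, and 1 of 4 trans-splicing genes higher and 0 lower. There mec-8 (0.41) and hrpf-1 (0.40) were higher and mbl-1 (-0.43) and hrpk-1 (-0.23) lower in daf-2, and aly-1 (0.66), an export adaptor, and sut-1 (0.45), of the trans-splicing list, were higher.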

How the data were processed

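The authors made mRNA-seq libraries with a kit that does not keep strand, sequenced 50-base single-end reads and processed them with the Cactus pipeline. The submitters' processing notes name kallisto, edgeR and DiffBind and the builds ce11 and WBcel235. The deposited table of estimated counts holds 19997 genes, rounded to whole numbers and not normalised. In 305 cells the estimated count is 0 while the TPM is above 0. The deposited TPM table is scaled by the authors for length and depth. Neither table held other per-sample columns.

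Symbols and positions came from Ensembl release 115 of WBcel235, with 19957 of the genes given a symbol. The splicing factor genes, gene lists and markers were chosen with earlier results of these data known. Estimated counts were tested with edgeR 4.0.16 (R 4.3.3): genes kept by filterByExpr (minimum count 10, minimum total 15), TMM factors, quasi-likelihood test, two-sided, Benjamini-Hochberg over all genes, called at 0.05. The standard error is the fold change divided by the square root of F. daf-2 and WT were fitted with their 6 samples, the ages with the 6 glp-4 samples, and glp-4 against WT with all 12. Alternatives were other scalings (size factors of DESeq2, upper quartile, library totals), DESeq2 1.42.0, limma 3.58.1 on log2(TPM + 1) and log2(TPM + 0.1), other filters, samples and thresholds, a replicate block, and leaving out each sample.

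All 43 splicing factor genes passed the filter in every comparison. Per-sample values were printed for the 3 called genes with the largest rise and the 3 with the largest fall in each comparison and for genes whose call differed between comparisons of ages, and a few others (sfa-1, uaf-1 and prp-8 among them) were added after their values were seen. Total counts were 4538353 to 22484551 per sample, where 3 counts equal 0.661 to 0.133 CPM, which covers counting error only. The fits were first tested on simulated counts with known changes. Of log2 changes of 1, 83.2% were called with the right sign in daf-2 against WT. The share was 69.1% to 70.5% in the comparisons of ages and 59.8% in glp-4 against WT. Of log2 changes of 2, it was 86.5% to 94.95%. Smaller changes were not simulated, so a gene that did not pass may still differ. Sequences were not used here. Markers and other lists are described by counts and medians without a set test.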

Additional observations from a re-analysis of the deposited data

How the results depend on the processing

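Each result was recomputed under the alternatives. For daf-2 against WT and for the ages, counts listed after the main count are those that differed from it by more than 1.5-fold. Smaller differences are not listed, and left-out samples and the replicate block are given apart. For glp-4 day 1 against WT day 1 all of them called 42 genes lower and 1 higher, apart from the threshold of 2-fold, which called 39 lower and 1 higher. For daf-2 against WT, genes called higher numbered 12, but 19 with library totals alone, 7 with DESeq2, 21, 21 and 19 with limma on log2(TPM + 1), on log2(TPM + 0.1) and without its filter, 4 in a model of all 12 samples, 5 at an adjusted p of 0.01 and 0 at 2-fold. Those called lower numbered 5, but 0 with library totals, 0 in each limma fit, 2 in the model of all 12 samples and 0 at 2-fold. For day 3 against day 1, 26 genes were lower, but 16, 16 and 14 in the limma fits, 16 at an adjusted p of 0.01 and 3 at 2-fold. For day 7 against day 1, 2 were higher, but 8 with upper-quartile scaling, 22 with library totals, 1 with DESeq2, 15, 15 and 12 in the limma fits, 1 without the filter on counts, 4 with all 12 samples, 1 at 0.01 and 1 at 2-fold, and 10 were lower, but 6, 1, 2, 2 and 2 under upper-quartile scaling, library totals and the limma fits, 17 with all 12 samples and 1 at 2-fold. For day 7 against day 3, 12 were higher, but 37 with library totals, 5 with DESeq2, 32 in each limma fit, 5 at 0.01 and 2 at 2-fold. The cause of these shifts was not tested beyond the scaling medians given above. Signs turned for rsp-5 (0.0023) and uaf-1 (0.0593) in daf-2 against WT with limma on log2(TPM + 1), and on day 7 against day 1 for rsp-2 (0.0544), uaf-2 (0.0553) and rsp-3 (0.221) with library totals and for rsp-3 (0.111) with limma. With a sample left out, the counts ran from 6 to 11 higher and 4 to 5 lower in daf-2 against WT, 1 higher and 16 to 25 lower on day 3, 1 to 2 higher and 7 to 13 lower on day 7 against day 1, 4 to 14 higher and 0 lower between day 3 and day 7, and 1 higher and 42 lower in glp-4 against WT. No sign of a called gene turned in these fits. The replicate numbers are only names here, as deviations of same-numbered samples correlated at -0.11 to 0.03, and with them as a block 7 genes were called higher and 4 lower in daf-2 against WT. Depth limits the low genes on day 7, where snr-7 had 14 and 15 counts and prp-4 30 in each sample.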

Other observations

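A further measure was computed after the data were seen. The estimated count of a gene divided by its TPM follows the mean length of the transcripts to which its reads were assigned, and it was scaled by the median over 550 genes with 1 annotated transcript and at least 500 counts in every sample, then by its mean over the 12 samples, to give a length index. For the 25 splicing factor genes with 1 transcript this index stayed within 0.953 to 1.021. Among the 18 genes with more transcripts, 8 had a wider spread over the samples than any of those 25. prp-40, which has 3 annotated transcripts, had an index of 0.936 to 0.988 in daf-2, 0.930 to 0.978 in WT and 1.039 to 1.045 in all 6 glp-4 samples, so the glp-4 samples were above all others. rsp-5, with 5 transcripts, gave 0.947 to 0.952, 0.954 to 0.964 and 1.008 to 1.097. A separation of this kind also appeared in genes with 1 transcript, in both directions. The index of snr-6 was 1.021 in each sample of WT and daf-2 but only 0.953 to 0.995 in glp-4. For snr-7 it was 1.021 and 0.954 to 0.993. For prp-8 it was 0.994 in WT and daf-2 and 1.002 to 1.015 in glp-4, higher in glp-4 as in prp-40. Such a separation can thus appear in a gene with only 1 annotated transcript, and transcript use was not tested.

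uaf-1, with 2 transcripts, was nearly constant in glp-4 at 1.069 to 1.072, and its samples were spread within daf-2 (0.858 to 0.957) and within WT (0.873 to 1.056), with overlap between them. The TPM of uaf-1 therefore differed from its normalised CPM by a sample-specific amount. rnp-6 and rnp-8 had the widest index over all samples, with 0.920 to 1.284 and 0.778 to 1.099 in glp-4, where rnp-8 had as few as 47 estimated counts in a sample. No test was run on this index, which rests on the authors' assignment of 50-base reads to transcripts.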
